A study of Mus musculus with 12 samples.

Results

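The 9 genes described here encode the enzymes of polyamine synthesis and the proteins that control and break down polyamines: Odc1, Amd1, Srm, Sms, Oaz1, Oaz2, Azin1, Sat1 and Smox. They were chosen by name for their role in the pathway and not by a rule on measured values, but earlier results of these data were known. All 9 were among the 15651 genes of the expression table. RNA was sequenced from c-Kit+ leukemic splenocytes of 3 D/F and 3 T/F mice that were moribund with acute myeloid leukemia (AML). D/F mice carried Dnmt3afl/fl, Flt3ITD/ITD and Mx1Cre, and T/F mice carried Tet2fl/fl, Flt3ITD/ITD and Mx1Cre, so the Flt3 internal tandem duplication on both alleles was shared by every library. Mx1-Cre is an interferon-inducible Cre. It was not induced in these mice, and the floxed alleles were lost spontaneously, on one or both copies, through its leaky expression. Each mouse gave cells for both arms, CCS1477 (4 µM for D/F, 2 µM for T/F) and vehicle (DMSO). Both arms were harvested after 6 hours in medium with 20% serum, 60 ng/ml SCF, 20 ng/ml IL6 and 20 ng/ml IL3, which gave 12 libraries in 4 groups of 3. CCS1477 (inobrodib) binds the bromodomains of the histone acetyltransferases p300 and CBP. No group without leukemia or without the Flt3 mutation was analysed here, and because the doses differed, genotype and dose cannot be told apart.

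Polyamines are small positively charged molecules that bind nucleic acids and are needed for translation and proliferation. Ornithine decarboxylase (Odc1) makes putrescine, S-adenosylmethionine decarboxylase (Amd1) supplies the aminopropyl donor, and spermidine synthase (Srm) and spermine synthase (Sms) add aminopropyl groups to give spermidine and spermine. Polyamines induce a frameshift in the antizyme transcripts (Oaz1, Oaz2), antizyme directs ornithine decarboxylase to the proteasome, and antizyme inhibitor (Azin1) binds antizyme and frees the enzyme. Spermidine/spermine acetyltransferase (Sat1) and spermine oxidase (Smox) return spermine and spermidine towards putrescine. Odc1 and Srm are well-known targets of the transcription factor Myc. In the GENCODE vM21 annotation of GRCm38 the genes lie on 7 chromosomes: Odc1 at chr12:17544794-17551505, Amd1 at chr10:40287458-40302186, Srm at chr4:148591503-148594993, Sms at chrX:157443855-157492287, Oaz1 at chr10:80826656-80829290, Oaz2 at chr9:65668001-65690300, Azin1 at chr15:38487427-38519266, Sat1 at chrX:155213132-155216449 and Smox at chr2:131491496-131525922.

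The sequence just upstream of the start site is shown for a member that rose (Sat1) and for a pair that fell (Amd1, Sms) in both genotypes, because transcript levels of the set moved in opposite directions. A RefSeq promoter entry (GRCm38.p6) was found for 7 of the 9 members, all but Srm and Azin1. Of the others, those of Odc1, Oaz2 and Smox start inside an annotated transcript and were not printed. Each line gives the 250 bases before the start site, 5′ to 3′ on the gene's strand. Capitals mark each match to 1 of 5 motifs searched on both strands: the E-box CACGTG, the GC box GGGCGG, the CCAAT box, the cyclic AMP response element (CRE) TGACGTCA and the TATA box TATAAA.
Sat1 (chrX:155216450-155216699, minus strand): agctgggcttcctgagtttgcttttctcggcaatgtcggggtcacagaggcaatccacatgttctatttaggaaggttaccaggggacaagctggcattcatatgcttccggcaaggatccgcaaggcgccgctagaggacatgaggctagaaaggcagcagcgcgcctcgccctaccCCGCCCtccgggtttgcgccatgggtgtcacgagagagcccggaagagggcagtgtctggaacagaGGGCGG
Amd1 (chr10:40302189-40302438, minus strand): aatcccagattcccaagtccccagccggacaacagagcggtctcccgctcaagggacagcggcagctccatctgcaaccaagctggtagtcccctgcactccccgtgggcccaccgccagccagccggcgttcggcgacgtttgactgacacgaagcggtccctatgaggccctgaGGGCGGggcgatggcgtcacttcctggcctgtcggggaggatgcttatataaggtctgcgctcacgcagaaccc
Sms (chrX:157492288-157492537, minus strand): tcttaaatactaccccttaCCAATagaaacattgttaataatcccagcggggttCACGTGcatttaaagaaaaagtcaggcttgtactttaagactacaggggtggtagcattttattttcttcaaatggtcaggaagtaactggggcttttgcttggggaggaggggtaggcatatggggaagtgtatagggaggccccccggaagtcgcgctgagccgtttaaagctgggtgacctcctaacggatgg
The Sat1 window held 2 GC boxes, the Amd1 window held 1 GC box, and the Sms window held 1 E-box and 1 CCAAT box. Over all 32851 promoter entries of this length, 32.7% held a GC box, 33.8% a CCAAT box, 6.02% the E-box, 1.55% the CRE and 12.4% the TATA box. Sms had a further entry at a start site within the gene, whose window held 4 GC boxes and no E-box.

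Values are in TPM, the scaled share of a library's transcripts after correction for transcript length, so a level is relative to the other genes of that library and levels of different genes can be compared. TPM keeps no read numbers, so only the spread between mice shows how precise a value is. Libraries summed to 914204 to 931697 TPM. The 6 markers fixed for the labelled cells (Kit, Flt3, Cd34, Ptprc, Mpo, Spi1) were all listed. Their summed level, mostly Mpo, was 1935 to 3988 TPM in D/F with DMSO and 449 to 1727 TPM with CCS1477, and 1720 to 2504 TPM and 733 to 1258 TPM in T/F. In D/F, Cd34 and Spi1 were lower and separate with CCS1477, while Kit, Flt3 and Mpo overlapped. Ptprc was higher and separate there (0.83 to 1.62 TPM and then 1.70 to 2.43 TPM). In T/F, Kit, Mpo, Spi1 and Ptprc were lower and separate, while Flt3 and Cd34 overlapped. Ptprc, the pan-leukocyte marker, was at most 3.11 TPM in any library. Neutrophil markers (7 of 7 listed) summed to between 1629 and 9382 TPM over all libraries, and this sum did not separate the treatments. Of these markers, Retnlg (27.4 to 65.6 TPM and then 2.81 to 14.4 TPM) and Ly6g (1.68 to 3.12 TPM and then 0 to 0.47 TPM) were lower and separate in D/F. The other neutrophil markers overlapped in D/F, and all of them overlapped in T/F. The sums over 6 of 7 monocyte and macrophage markers were 34.1 to 48.7 TPM and then 6.13 to 7.24 TPM in D/F, and 50.7 to 84.8 TPM and then 11.3 to 23.4 TPM in T/F. Over 2 of 5 stromal and endothelial markers, mostly Pecam1, they were 94.7 to 161 TPM and then 19.7 to 27.8 TPM in D/F, and 57.8 to 74.3 TPM and then 16.8 to 24.0 TPM in T/F. Of the B cell markers 2 of 5 were listed. Their sum was 25.4 to 51.4 TPM with DMSO and 20.4 to 48.2 TPM with CCS1477 in D/F, and 48.4 to 57.9 TPM and then 104.0 to 131 TPM in T/F. Ighm alone was higher there (33.1 to 41.7 TPM and then 93.1 to 118 TPM), while Cd79b was lower in T/F (15.3 to 18.1 TPM and then 10.9 to 13.4 TPM) and in D/F (10.4 to 22.8 TPM and then 3.64 to 8.22 TPM). T cell markers (3 of 6) stayed between 13.8 and 25.7 TPM and erythroid markers (6 of 7) between 9.32 and 28.9 TPM. The part of these marker shifts in the results on polyamine genes was not tested. In bulk RNA, fewer cells of a type and less RNA per cell cannot be told apart. D/F mouse 2 stood apart from the other D/F mice in both of its libraries, and the values without it are given where they matter. Of the floxed genes, Dnmt3a was at 29.3 to 55.7 TPM in D/F and 39.9 to 57.2 TPM in T/F, and the genotypes overlapped in each treatment. Tet2 with DMSO was at 30.0 to 35.8 TPM in T/F and 38.3 to 43.4 TPM in D/F. With CCS1477 it was at 24.6 to 28.7 TPM in T/F and 32.5 to 35.6 TPM in D/F. Tet2 was thus lower and separate in T/F within each treatment, though not called (limma, adjusted p = 0.803 and 0.343). Gene totals do not show whether the floxed exons were present.

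Transcripts of the synthetic enzymes Srm, Sms and Amd1 fell with CCS1477 in both genotypes, and those of the catabolic enzyme Sat1, the antizyme Oaz2 and the antizyme inhibitor Azin1 rose (the plot of members by library). In the fit without a mouse term, Odc1 (lower) and Smox (higher) passed in T/F and not in D/F, and Oaz1 passed in neither. With the mouse as a block, Smox also passed in D/F (limma, adjusted p = 0.0209). The difference between genotypes was not called for Odc1 or Smox. In D/F cells 3 members rose and 3 fell at an adjusted p under 0.05 (limma on log2(TPM + 1)), and the other 3 did not pass. All 6 of these D/F calls were lost without D/F mouse 1 (adjusted p = 0.156 to 0.286) or mouse 3 (0.179 to 0.322), and without mouse 2 that of Amd1 alone was (0.0513). Among all 15501 genes tested there, 5.14% rose and 6.51% fell. With the mouse as a block, 4 members rose and 3 fell in D/F, where 3312 genes rose and 2786 fell. In T/F cells 4 members rose and 4 fell, where 25.8% and 17.6% of 15256 genes did. With a change above 2-fold also required, D/F had 2 members higher (Sat1, Oaz2; 2.67% of genes) and 1 lower (Srm; 4.61% of genes), and T/F had 1 higher (Oaz2; 2.63%) and 1 lower (Srm; 4.70%). Over both genotypes together, 4 members rose (25.8% of 15583 genes) and 3 fell (19.6%). Without Oaz1, which was listed at 0 in 3 T/F libraries, the other 8 members had a median log2 fold change of 0.23 for D/F and -0.08 for T/F, beside 0.057 and 0.075 over all genes tested. Each of the 9 genes moved the same way in all 3 D/F mice, 5 up and 4 down, as 38.5% and 31.0% of all genes tested did. Of the 9, 4 went up and 4 down in all 3 T/F mice, beside 43.9% and 31.3% of all genes.

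**Figure D1:**
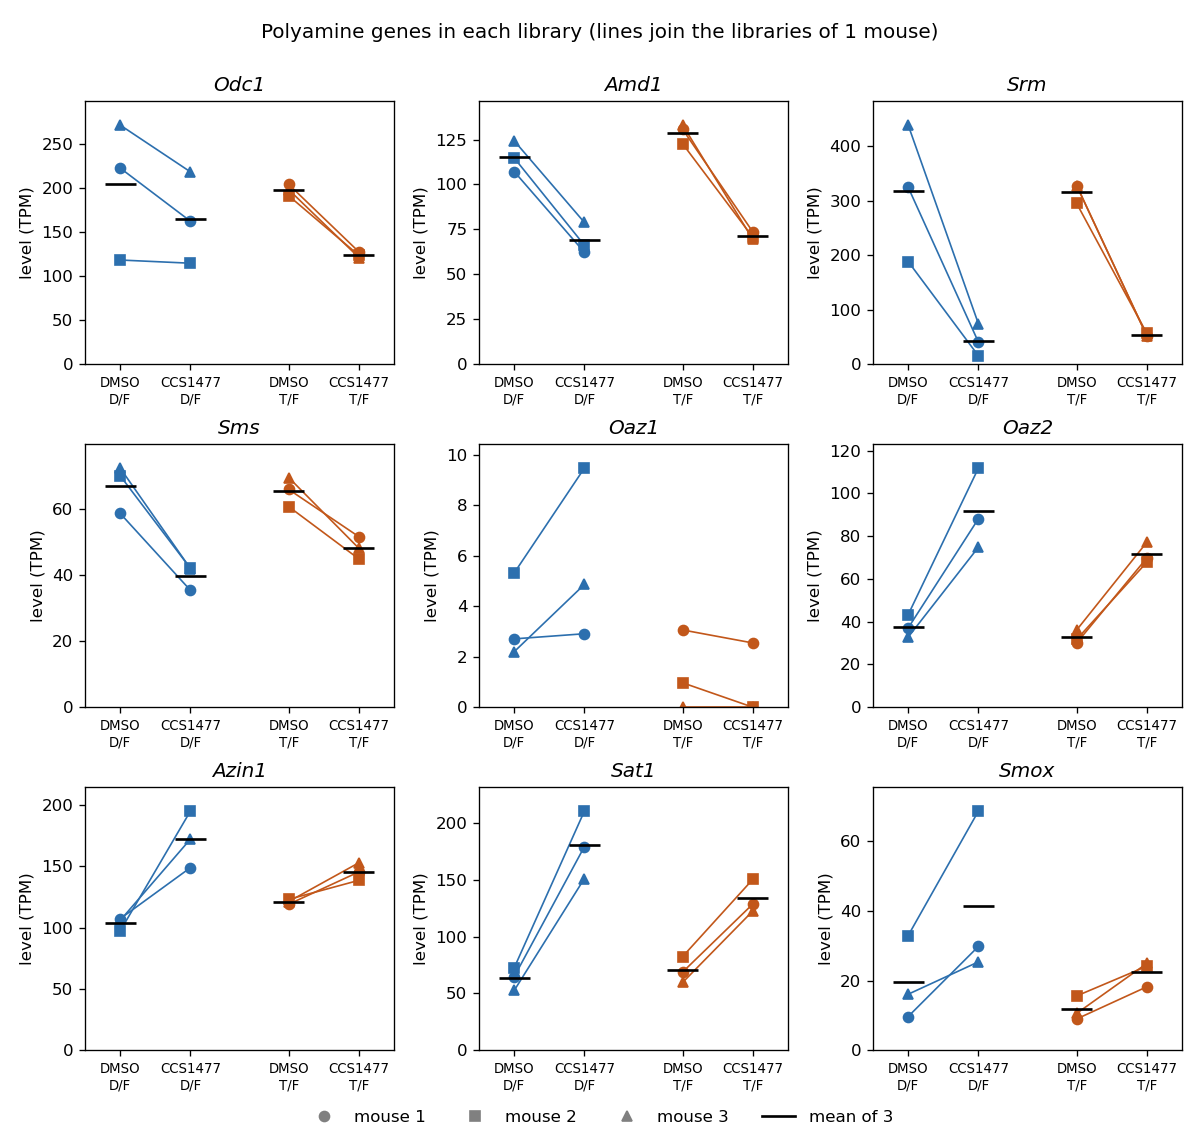
Level in TPM of each of the 9 genes in every library, on linear axes from 0. Lines join the DMSO and CCS1477 libraries of 1 mouse and black bars are means of 3 mice, drawn for all genes but Oaz1. The lines of Srm, Amd1 and Sms all fall and those of Sat1, Oaz2 and Azin1 all rise. The DMSO and CCS1477 points of these 6 genes do not overlap in either genotype, while Odc1 and Smox overlap in D/F. The share of all genes without overlap was not computed, so this cannot be read as particular to these genes.

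Odc1, the first enzyme of the pathway, was at 223, 118 and 271 TPM with DMSO in D/F mice 1 to 3 and at 162, 115 and 218 TPM with CCS1477. Mouse 2 was low in both arms and the groups overlapped. T/F cells had 204, 191 and 198 TPM with DMSO and 127, 123 and 121 TPM with CCS1477, and these groups were separate. As a ratio to DMSO within the mouse, the treated level was 0.729, 0.969 and 0.804 for the D/F mice and 0.625, 0.646 and 0.611 for the T/F mice. The fall passed in T/F, with a log2 fold change of -0.67 ± 0.06 (SE, n = 3 mice) and an adjusted p of 0.000876, and not in D/F, where it was -0.27 ± 0.37 with an adjusted p of 0.676. Over both genotypes it was -0.47 ± 0.20 with an adjusted p of 0.0822, which became 0.00436 with the mouse as a block and 0.00118 without D/F mouse 2. The difference between the responses, T/F minus D/F, was -0.40 on the log2 scale (95% interval -1.31 to 0.51) and was not called. A fit that took one estimate of the spread from all 4 groups also ended the T/F call (adjusted p = 0.122).

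Myc, whose product binds the Odc1 gene in many cell types, was listed at 300, 468 and 367 TPM in D/F with DMSO and at 20.7, 17.8 and 19.0 TPM with CCS1477. T/F libraries had 265, 230 and 311 TPM with DMSO and then 24.9, 19.3 and 27.1 TPM. On the log2 scale Myc fell by 4.21 ± 0.20 in D/F (adjusted p = 0.00131) and by 3.45 ± 0.16 in T/F (adjusted p = 0.000311). The order of mice by Odc1 and by Myc varied between groups. In D/F with DMSO, mouse 2 had the least Odc1 and the most Myc, as mouse 3 did in T/F with CCS1477. In D/F with CCS1477 and in T/F with DMSO, mouse 2 had the least of both. Whether Odc1 followed Myc was not tested.

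Srm, which makes spermidine, showed the largest fold change of the 9 in both genotypes. With DMSO it was at 325, 188 and 439 TPM in D/F and at 328, 295 and 328 TPM in T/F, the highest mean of the set. With CCS1477 it was at 40.6, 15.5 and 74.3 TPM in D/F and at 51.9, 56.4 and 51.7 TPM in T/F. The highest treated library (74.3 TPM) was below the lowest untreated one (188 TPM), and D/F mouse 2 was again the lowest in each arm. Within the mouse, CCS1477 left 0.125, 0.0821 and 0.169 of the DMSO level for D/F mice 1 to 3 and 0.158, 0.191 and 0.158 of it for the T/F mice. For D/F and T/F the log2 fold changes were -3.01 ± 0.59 (adjusted p = 0.0279) and -2.55 ± 0.08 (adjusted p = 0.000242). In D/F 0.277% of the genes tested, and in T/F 0.203%, had a log2 fold change as low or lower.

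Sms, which makes spermine, fell less than Srm. It was at 58.6, 70.0 and 72.3 TPM in D/F with DMSO and at 35.4, 42.0 and 41.9 TPM with CCS1477. For T/F the levels were 65.8, 60.6 and 69.4 TPM with DMSO and 51.5, 44.8 and 48.0 TPM with CCS1477. The groups were separate in each genotype, with changes of -0.74 ± 0.16 in D/F (adjusted p = 0.0364) and -0.43 ± 0.08 in T/F (adjusted p = 0.0094) on the log2 scale. In T/F the call was lost when any 1 mouse was left out (adjusted p = 0.0511 to 0.0632). A processed copy, Sms-ps, was listed at 19.1 to 43.3 TPM, and reads of the gene and its copy may have been split between them. Summing both, which was chosen after seeing the data, gave -0.55 for D/F (adjusted p = 0.0551) and -0.38 for T/F (adjusted p = 0.0146).

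Amd1, the decarboxylase that feeds both synthases, was at 107, 115 and 124 TPM with DMSO in D/F and at 62.3, 66.2 and 78.9 TPM with CCS1477. Its T/F levels were 131, 123 and 133 TPM with DMSO and 73.5, 70.6 and 69.4 TPM in the treated arm. Every treated library was below every untreated one. Amd1 changed by -0.74 ± 0.16 on the log2 scale for D/F (adjusted p = 0.0354; 0.0513 without mouse 2) and by -0.85 ± 0.06 for T/F (adjusted p = 0.000583). The copies Amd2 and Amd-ps3 were low, at 0.67 to 11.2 TPM and 0.91 to 2.89 TPM, and summing them with Amd1 gave -0.72 (adjusted p = 0.0344) and -0.83 (adjusted p = 0.000553).

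Oaz1, the most widely expressed antizyme in most tissues, was listed at 2.70, 5.31 and 2.20 TPM in D/F with DMSO and at 2.91, 9.46 and 4.86 TPM with CCS1477. The T/F libraries list 3.06, 0.97 and 0 TPM with DMSO and 2.54, 0 and 0 TPM with CCS1477. These are the lowest values of the set for a transcript that is usually abundant. A 0 in a table without read counts can be a failed estimate, so no fold change is given for T/F. Whether the listed levels reflect the cells or how this transcript was estimated was not tested, and the same holds for every comparison with Oaz1 here. In D/F the log2 fold change was 0.56 ± 0.42 with an adjusted p of 0.416, and with the mouse as a block it was 0.0791.

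Oaz2, the second antizyme, rose in both genotypes. It went from 37.1, 43.3 and 32.8 TPM to 88.1, 112 and 74.8 TPM in D/F. Its T/F levels went from 30.1, 31.7 and 36.1 TPM to 69.8, 67.9 and 77.2 TPM. Treated and untreated libraries did not overlap, and the ratio within the mouse stayed within 2.14 to 2.58 over all 6 mice. Oaz2 rose by 1.25 ± 0.20 on the log2 scale in D/F (adjusted p = 0.0183) and by 1.11 ± 0.09 in T/F (adjusted p = 0.000751).

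Azin1, the inhibitor of antizyme, was at 107, 97.2 and 106 TPM in D/F with DMSO and at 149, 195 and 172 TPM with CCS1477. T/F cells had 119, 123 and 121 TPM with DMSO and 145, 138 and 153 TPM with CCS1477. The groups were separate in both genotypes, and the rise was 0.72 ± 0.16 on the log2 scale in D/F (adjusted p = 0.0373) and 0.26 ± 0.06 in T/F (adjusted p = 0.0197). The T/F call was lost when each library was rescaled to its median gene (0.19, adjusted p = 0.0698), in the fit with a shared spread (adjusted p = 0.108) and when any 1 mouse was left out (adjusted p = 0.0797 to 0.145).

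Sat1, the acetyltransferase that starts polyamine breakdown and export, was at 64.8, 72.6 and 52.7 TPM in D/F with DMSO and at 179, 211 and 151 TPM with CCS1477. In the T/F cells, 68.9, 82.6 and 59.8 TPM became 129, 151 and 123 TPM. The groups did not overlap, and mouse 2 was the highest of its genotype in each of the 4 groups. Treated over untreated, the ratio was 2.77, 2.90 and 2.87 for D/F mice 1 to 3, and 1.87, 1.82 and 2.06 for T/F mice 1 to 3. Sat1 rose by 1.50 ± 0.20 on the log2 scale in D/F (adjusted p = 0.0105) and by 0.93 ± 0.14 in T/F (adjusted p = 0.00406), and 98.9% and 96.2% of the genes tested had a value as low or lower.

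Smox, which oxidizes spermine to spermidine, was at 9.68, 33.0 and 16.1 TPM in D/F with DMSO and at 29.8, 68.7 and 25.4 TPM with CCS1477. The groups overlapped there because mouse 2 was high in both arms. The T/F levels of 8.99, 15.6 and 10.6 TPM with DMSO and 18.2, 24.1 and 25.0 TPM with CCS1477 did not overlap. Smox was higher with CCS1477 in 6 of 6 mice, 3.08, 2.09 and 1.58 times DMSO for D/F and 2.03, 1.55 and 2.36 times for T/F. Its log2 fold change of 1.06 ± 0.53 in D/F did not pass (adjusted p = 0.232), and with the mouse as a block it did (adjusted p = 0.0209). For T/F it was 0.90 ± 0.22 with an adjusted p of 0.0197, which became 0.169 in the fit with a shared spread, 0.051 without mouse 1 and 0.132 without mouse 3.

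**Figure D2:**
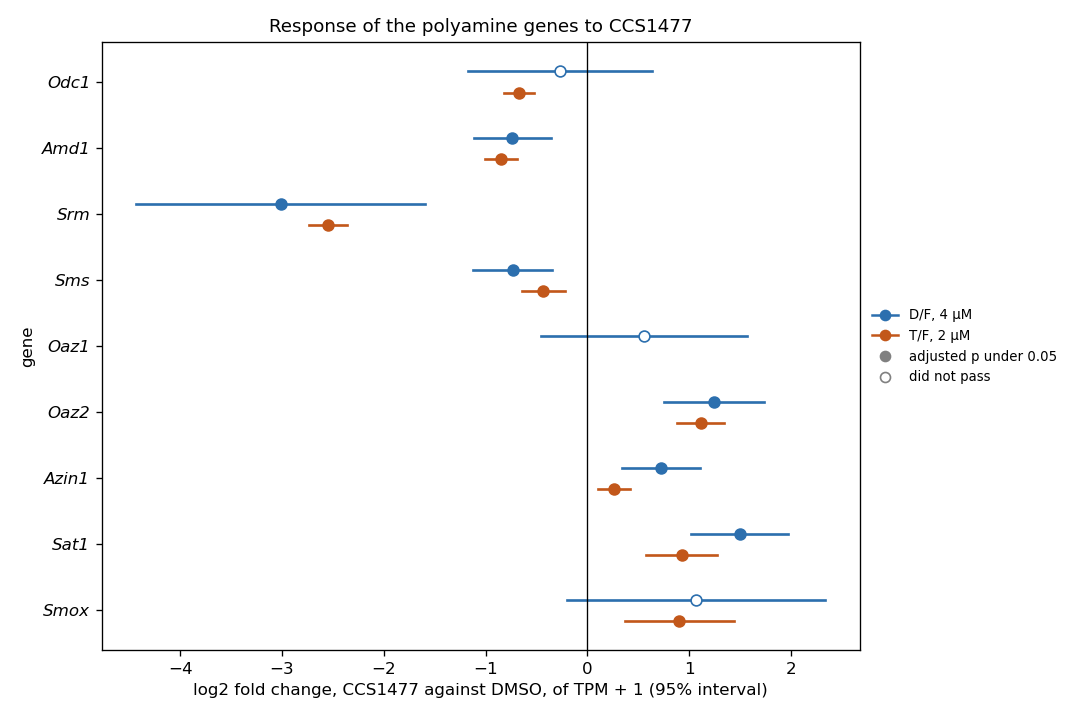
Log2 fold change of TPM + 1, CCS1477 against DMSO, for each member in D/F (blue, 4 µM) and T/F (orange, 2 µM) cells. Points are limma estimates over 3 mice a group, bars are 95% intervals, filled points passed an adjusted p under 0.05, and Oaz1 is left out in T/F, where it is listed at 0 in 3 libraries. Srm lies farthest from 0, at -3.01 and -2.55, the synthetic enzymes lie to the left of 0, and the D/F bars are wider than the T/F bars.

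Every call in D/F by the fit without a mouse term was lost when mouse 1 or mouse 3 was left out, while the estimates of the called members changed little. When either was left out, no gene of the table passed (0 of 15539 and 0 of 15545 in limma, with 2494 and 2330 genes at an unadjusted p under 0.05). Without mouse 2, 3739 genes passed. The log2 fold changes of the 6 members called in D/F kept their sign in each of these fits. They were -3.25 to -2.76 for Srm, -0.75 to -0.72 for Sms and -0.78 to -0.71 for Amd1. The rises were 1.48 to 1.51 for Sat1, 1.2 to 1.29 for Oaz2 and 0.58 to 0.85 for Azin1. None of these fits was paired by mouse, and the fit with the mouse as a block was not repeated without a mouse. Between 3 libraries and 3 the exact two-sided permutation test cannot give a p below 0.1, and it gave 0.1 for Srm, Sms, Amd1, Sat1, Oaz2 and Azin1 in each genotype and for Odc1 and Smox in T/F. The share of all genes at 0.1 in this test was not computed.

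The order of the levels changed with treatment. With DMSO, Srm was the highest on average and Odc1 the next in both genotypes, at 317 ± 125 (SD, n = 3) and 204 ± 78.2 TPM in D/F, and 317 ± 19.0 and 198 ± 6.45 TPM in T/F. Amd1 and Azin1 followed at 115 ± 8.57 and 103 ± 5.40 TPM in D/F and 129 ± 5.47 and 121 ± 2.01 TPM in T/F, then Sms and Sat1 between 63.3 and 70.4 TPM, then Oaz2, Smox and Oaz1. The neighbours Srm and Odc1, Odc1 and Amd1, Sms and Sat1, and Oaz2 and Smox overlapped in D/F, and Amd1 and Azin1, and Sat1 and Sms, overlapped in T/F.

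With CCS1477 the 3 highest were Sat1 (181 ± 29.7 TPM), Azin1 (172 ± 23.1 TPM) and Odc1 (165 ± 51.9 TPM) in D/F, and Azin1 (146 ± 7.16 TPM), Sat1 (134 ± 14.7 TPM) and Odc1 (124 ± 3.23 TPM) in T/F. Each of these overlapped its neighbour in both genotypes. Srm, the first in order with DMSO, was the sixth in both, at 43.5 ± 29.5 TPM in D/F and 53.3 ± 2.65 TPM in T/F. Oaz2 (91.6 ± 18.7 and 71.6 ± 4.93 TPM) overlapped Amd1 (69.1 ± 8.68 and 71.2 ± 2.12 TPM), and in D/F Amd1, Srm, Smox (41.3 ± 23.8 TPM) and Sms (39.8 ± 3.81 TPM) each overlapped the next.

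Ratios of TPM within a library do not depend on how the library was scaled. Srm was 5.54, 2.69 and 6.07 times Sms in D/F with DMSO and 1.15, 0.368 and 1.77 times with CCS1477. For T/F the ratio was 4.98, 4.86 and 4.72 with DMSO and 1.01, 1.26 and 1.08 with CCS1477, so the listed levels of Srm and Sms were close in the treated T/F libraries. Sms-ps, which may hold reads of Sms, was listed at 30.3 to 34.4 TPM in those libraries and is not part of this ratio. Sat1 was 0.291, 0.614 and 0.194 times Odc1 in D/F and then 1.11, 1.84 and 0.693 times. The T/F libraries gave 0.338, 0.432 and 0.302 and then 1.01, 1.22 and 1.01. The summed level of Odc1 and Srm over that of Sat1 and Smox was 6.86 ± 3.74 (SD, n = 3) in D/F with DMSO and 1.03 ± 0.60 with CCS1477, and 6.42 ± 1.31 and 1.14 ± 0.10 in T/F. Treated and untreated libraries did not overlap in any of these 3 ratios (exact two-sided permutation p = 0.1 each, the smallest 3 against 3 allow; adjusted p = 0.167 over 5 ratios in D/F and 0.1 over 3 in T/F). The ratios are made of members whose own changes are given above, so these separations are not further evidence. Azin1 over Oaz1 was 35.4 ± 15.4 and 35.7 ± 15.3 in D/F (exact p = 0.9), and Odc1 over Oaz1 was 76.0 ± 50.9 and 37.6 ± 22.8 (exact p = 0.4). Both rest on the low listed values of Oaz1, whose source was not tested, and were not computed in T/F.

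**Figure D3:**
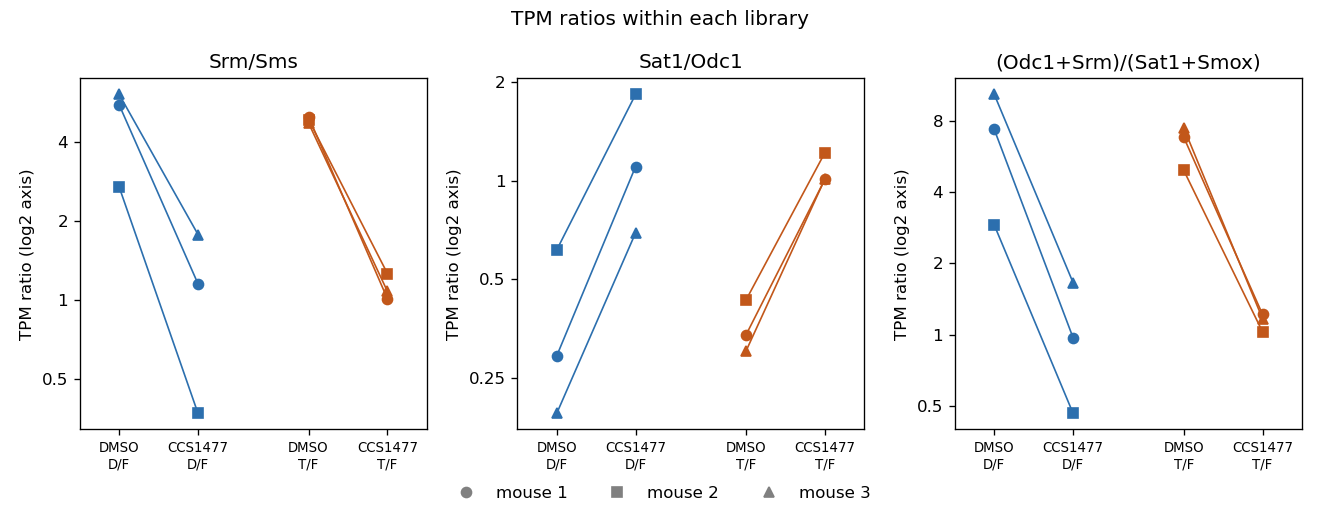
Ratios of TPM within each library on log2 axes, for Srm over Sms, Sat1 over Odc1, and the sum of Odc1 and Srm over the sum of Sat1 and Smox. Lines join the libraries of 1 mouse. In each panel the DMSO and CCS1477 points are separate in both genotypes, and D/F mice spread more widely than T/F mice, with mouse 2 at an edge of the D/F points.

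Whether the response differed between the genotypes was tested with an interaction term. None of the 9 members passed (all adjusted p = 1; 0% of 15583 genes passed, with 659 genes at an unadjusted p under 0.05, and none passed with the mouse as a block, at 2293). At an unadjusted p under 0.05 were 2 members, Azin1 (T/F minus D/F -0.46 on the log2 scale, 95% interval -0.80 to -0.11) and Sat1 (-0.57, -1.11 to -0.03). With the mouse as a block Sat1 had the smallest p of the set, with an interval of -0.78 to -0.35 and an adjusted p of 0.17. For Srm the interval was -0.99 to 1.92, for Sms -0.07 to 0.67, for Amd1 -0.45 to 0.23, for Oaz2 -0.63 to 0.36 and for Smox -1.55 to 1.23, so the intervals of Odc1, Srm, Sat1 and Smox reached past a 2-fold difference on one side or both.

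T/F was also compared with D/F within each treatment. With DMSO no member passed (adjusted p of 0.841 to 0.994; 0.0328% of 15265 genes passed), and none had an unadjusted p under 0.05. Among the members the ranges of Azin1 alone were separate, at 97.2 to 107 TPM in D/F and 119 to 123 TPM in T/F (exact two-sided permutation p = 0.1). With CCS1477 none passed either (adjusted p of 0.335 to 0.89; 0.0329% of 15199 genes), with Sat1 and Oaz1 at an unadjusted p under 0.05. The ranges of Sat1 (151 to 211 TPM in D/F, 123 to 151 TPM in T/F), Smox (25.4 to 68.7 and 18.2 to 25.0 TPM) and Sms (35.4 to 42.0 and 44.8 to 51.5 TPM), and the listed values of Oaz1 (2.91 to 9.46 and 0 to 2.54 TPM), did not overlap there (exact two-sided permutation p = 0.1 each). Since the doses differed, these values are for a genotype together with its dose. The share of all genes with separate ranges was not computed for either treatment, so the separations cannot be read as particular to the members.

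The wider pathway was described by 28 other genes for ornithine supply, S-adenosylmethionine supply and salvage, hypusine synthesis, catabolism and transport, of which 24 were listed. In D/F cells 1 rose and 5 fell, and in T/F cells 5 rose and 10 fell, to be read against the 5.14% and 6.51% of genes in D/F and the 25.8% and 17.6% in T/F. With the mouse as a block the D/F counts became 6 and 11, while 3312 rose and 2786 fell among all 15501 genes. Their median log2 fold change was -0.35 for D/F and -0.23 for T/F. Those called in the same direction in both genotypes were Slc22a3, Mtap, Mat2a, Mri1 and Paox, which fell, and Apip, which rose. The D/F calls of these 6 were all lost without D/F mouse 1 (adjusted p = 0.123 to 0.311) or mouse 3 (0.195 to 0.314) and held without mouse 2.

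Several of these 6 act on the donor of the aminopropyl group and on its by-product. Mat2a, which makes S-adenosylmethionine, the substrate of Amd1, went from 212, 325 and 282 TPM to 100.1, 157 and 131 TPM in D/F. The T/F values were 264, 233 and 297 TPM with DMSO and 123, 115 and 128 TPM with CCS1477. Its log2 fold changes were -1.07 ± 0.24 (adjusted p = 0.0389; 0.066 after quantile normalization) and -1.10 ± 0.10 (adjusted p = 0.000979). Mtap, which cleaves the methylthioadenosine that both synthases release, fell by 1.22 and 1.19 on the log2 scale (adjusted p = 0.0197 and 0.00194). Its D/F range was 44.2 to 63.6 TPM with DMSO and 19.2 to 26.7 TPM with CCS1477, and its T/F range 50.2 to 62.4 TPM and then 22.2 to 29.7 TPM. Mri1, the next enzyme of the salvage route, fell by 1.15 and 0.95 (adjusted p = 0.0154 and 0.00107). Apip, the dehydratase after it, rose by 0.76 and 0.68 (adjusted p = 0.0298 and 0.0202). Its call was also lost in D/F after rescaling to the median gene (adjusted p = 0.0647) and in T/F without mouse 2 (0.105) or mouse 3 (0.104). Enoph1 and Adi1, which act later in the route, had log2 fold changes of -0.83 and -0.56 in D/F, neither called without the block (adjusted p = 0.144 and 0.0623) and both called with the mouse as a block (adjusted p = 0.0153 and 0.0179), and of -0.77 and -0.54 in T/F, both called (adjusted p = 0.00145 and 0.00327). The fit with the mouse as a block called 6098 of 15501 genes in D/F.

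Paox, the oxidase that acts on the acetylated polyamines made by Sat1, fell while Sat1 rose. It went from 30.5, 31.4 and 28.5 TPM to 17.6, 15.7 and 15.4 TPM in D/F, while T/F libraries had 28.1, 24.6 and 28.3 TPM with DMSO and 18.3, 15.2 and 17.4 TPM with CCS1477. The log2 fold changes were -0.86 ± 0.14 (adjusted p = 0.0182) and -0.64 ± 0.10 (adjusted p = 0.00402), and no treated library overlapped an untreated one. Slc22a3, an organic cation transporter that can carry polyamines, went from 10.8, 47.5 and 14.7 TPM to 0.84, 1.69 and 0.72 TPM in D/F. T/F mice 1 to 3 had 11.7, 5.66 and 16.3 TPM with DMSO and 1.15, 0.65 and 1.87 TPM with CCS1477. Its log2 fold changes on the TPM + 1 scale, which understates changes of low genes, were -3.35 ± 0.53 (adjusted p = 0.0169) and -2.39 ± 0.39 (adjusted p = 0.0049; 0.0584 without T/F mouse 1).

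Hypusine synthesis modifies the translation factor Eif5a and uses spermidine. Eif5a and Dohh had log2 fold changes of -0.43 and -0.51 in T/F (adjusted p = 0.00397 and 0.00189) and of -0.82 and -0.32 in D/F (adjusted p = 0.265 and 0.359). Eif5a2 rose by 0.60 in T/F (adjusted p = 0.00717) and had 0.73 in D/F (adjusted p = 0.194). Dhps had -0.19 in T/F (adjusted p = 0.285) and -0.47 in D/F (adjusted p = 0.104). With the mouse as a block all 4 passed in D/F, Eif5a, Dohh and Dhps lower (adjusted p = 0.0346, 0.0488 and 0.0328) and Eif5a2 higher (0.0106), and Dhps was still not called in T/F (0.221). No difference between the genotypes was called for these 4 genes. In D/F the fit with the mouse as a block called 6098 of 15501 genes. Of the arginases, which make ornithine, Arg1 was not called in either genotype by either fit. Arg2 had 0.66 in D/F, which passed with the mouse as a block (adjusted p = 0.0253) and not without it (0.0699), and 0.16 in T/F (adjusted p = 0.323).

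**Figure D4:**
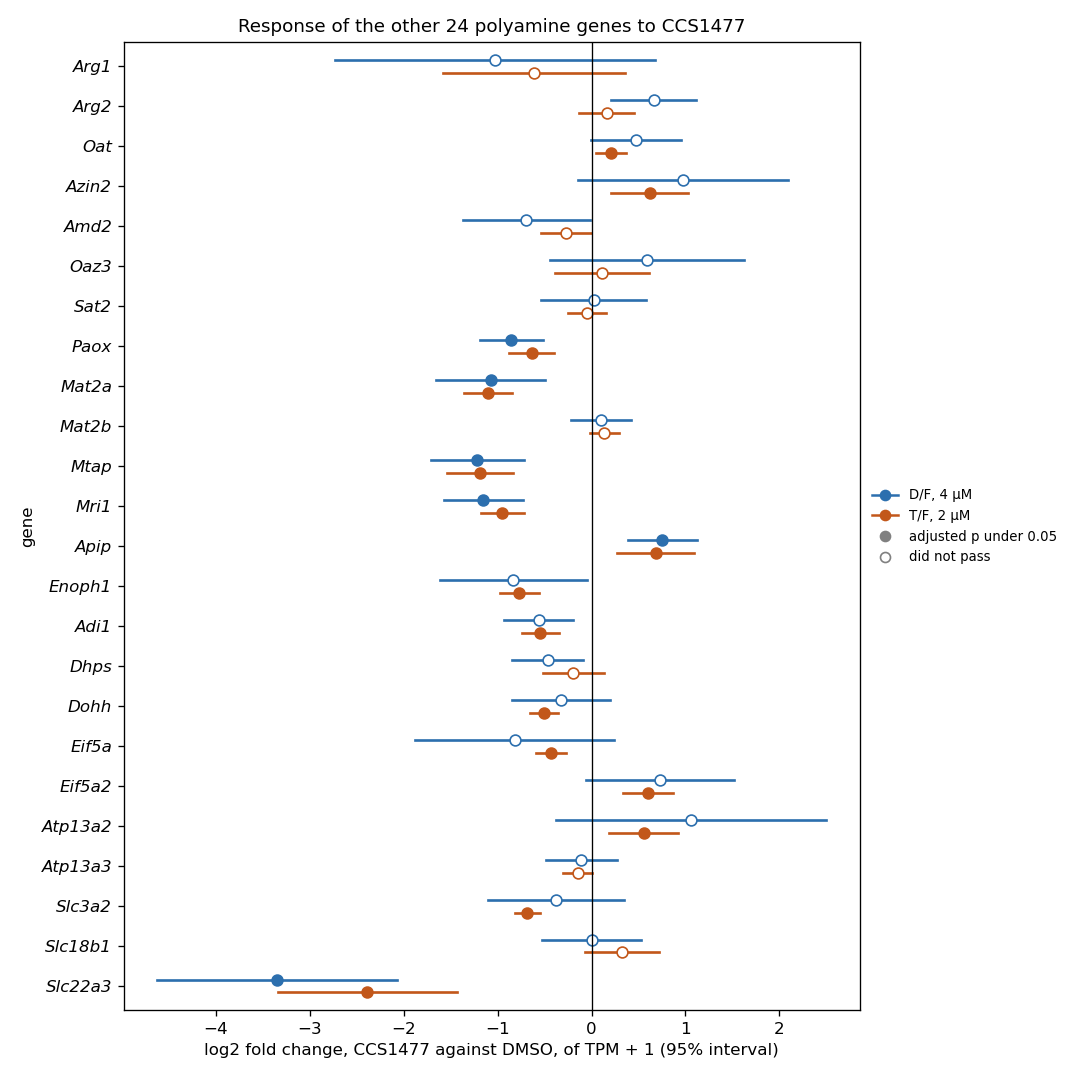
Log2 fold change of TPM + 1, CCS1477 against DMSO, for the 24 other listed polyamine genes, ordered by role, in D/F (blue) and T/F (orange) cells with 95% intervals. Filled points passed an adjusted p under 0.05. Paox, Mat2a, Mtap, Mri1 and Slc22a3 lie to the left of 0 in both genotypes with filled points, and Apip lies to the right.

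The genes whose level followed that of Odc1 most closely over the 12 libraries, among 11603 other genes that averaged 5 TPM or more, were Nomo1 (Pearson r = 0.959 of log2(TPM + 1)), Slc3a2 (0.944), Rabggtb (0.927), Zfp106 (0.925) and Hyou1 (0.922). Slc3a2, the heavy chain of several amino acid transporters, is also one of the 24 wider genes. Among the members, r with Odc1 was 0.726 for Srm, 0.613 for Amd1 and 0.401 for Sms, and -0.605 for Sat1, -0.643 for Oaz2, -0.670 for Smox and -0.394 for Azin1, and it was 0.515 for Myc. These values describe 12 libraries that share 6 mice and 2 treatments, and they carry no test.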

How the data were processed

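The authors deposited TPM per gene, made with kallisto per the labels and handled in AltAnalyze per the study's methods. mm10 is the build named in the labels. The annotation is not given in the sources used here. The table was filtered before deposit, since the lowest row maximum is 2.00 TPM. Depth per library is unknown, so no counting interval is given.

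Genes averaging 1 TPM or more in either compared group were tested with limma 3.58.1 (R 4.3.3) on log2(TPM + 1), eBayes without a trend, two-sided, with Benjamini-Hochberg adjustment over all genes tested. A gene passed at an adjusted p under 0.05. D/F and T/F were fitted apart, and fits over all 12 libraries gave the values over both genotypes and their difference. Fold changes are on that log2 scale, which understates those of low genes. This step was run on simulated data with noise drawn independently for each library, which leaves out the correlation between libraries of 1 mouse. The pass rule of that run covered the size of the estimated rises and not false calls. Single genes and TPM ratios were compared by exact permutation tests (Python 3.11.15).

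The labels give the mouse of each library. Deviations of libraries of the same mouse from their group means correlated across genes (r = 0.539, 0.669 and 0.541 in D/F, 0.383, 0.354 and 0.496 in T/F, against at most 0.141 between mice). Mice were not a term in the first fit, and adjusted p-values with the mouse as a block are printed where a call turns on it.

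The 9 genes, the wider list and the marker lists were chosen with earlier results of these data known. All 9 members were named. Wider genes with values were those passing in both genotypes in the same direction, up to 10. Eif5a, Eif5a2, Dohh, Dhps, Enoph1, Adi1, Arg1 and Arg2 were named after their values were seen, as were the copies of Sms and Amd1. The genes nearest Odc1 were the first 5 by Pearson r.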

Additional observations from a re-analysis of the deposited data

How the results depend on the processing

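In D/F cells 6 members and 1805 of all genes passed. The count of all genes became 2846 after quantile normalization (1552 higher and 1294 lower, against 796 and 1009), 6098 with the mouse as a replicate block, 4940 with a spread shared by 4 groups and 1128 when a change above 2-fold was also required, where 3 members passed. Leaving out 1 mouse gave 0 to 5 members and 0 to 3739 genes. In T/F cells 8 members and 6620 genes passed. These became 5 members and 3713 genes with the shared spread, 2 members and 1118 genes above 2-fold, and 5 to 6 members and 3192 to 5122 genes without 1 mouse. Over both genotypes 3 members and 1371 genes passed above 2-fold, against 7 and 7061. The mouse as a block changed the call of Smox in D/F and of Odc1 over both genotypes and of no other member. For T/F against D/F in DMSO, 5 genes passed, and 9 with a filter at 5 TPM, 9 after quantile normalization, 20 with the shared spread and 4 to 9 without 1 mouse. With CCS1477, 5 passed, and 11 with a trend in eBayes, 71 with the shared spread and 2 to 27 without 1 mouse. No member passed in the comparisons of the genotypes or in their difference under any of these settings. The causes of these shifts were not tested.

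Members kept their sign under each alternative in D/F, in T/F and over both genotypes (Oaz1 was followed in D/F alone), and so did the 6 named wider genes in D/F and T/F. Signs that turned when 1 mouse was left out belonged to values with no call: the difference between genotypes for Smox (-0.16 on the log2 scale, range -0.38 to 0.07), the ratio of Azin1 to Oaz1 in D/F (0.03, -0.14 to 0.27), and ratios between genotypes. With DMSO the latter ranged from -0.26 to 0.33 for Srm over Sms, from -0.26 to 0.57 for Sat1 over Odc1 and from -0.46 to 0.45 for the sum of Odc1 and Srm over that of Sat1 and Smox. With CCS1477 they ranged from -0.36 to 0.77, from -0.40 to 0.30 and from -0.16 to 0.76. Depth is unknown in TPM, so the limits on low values such as those of Oaz1 could not be computed, and 3 mice a group limit every test.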
